A study of Mus musculus with 46 samples.

Results

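The interleukin-1 (IL-1) family and the inflammasome were described here by 10 genes chosen by symbol: Il1a, Il1b, Il18, Il1rn, Il1r2, Il1r1, Nlrp3, Casp1, Casp4 and Gsdmd, out of 21231 genes listed over 3 expression tables. The main table held 24 libraries of CD11b+CD45int myeloid cells sorted from brain hemispheres of wild-type C57BL/6 mice, 2 months old at the start. Control mice were collected without lipopolysaccharide (LPS, called 0 hr, n = 3) or at 6 hr (n = 5) and 24 hr (n = 4) after 0.33 mg/kg LPS given intraperitoneally. White matter (WM) repopulated mice had 14 days of PLX3397 at 600 ppm in chow and 28 days of recovery, and were collected at the same 0, 6 and 24 hr (n = 4 each). Another table held 4 control libraries and 3 GLOBAL repopulation libraries of the same kind of cells, the latter after 7 days of PLX3397 and 28 days of recovery, with no LPS. The remaining table held whole tissue dissected from the subventricular zone (SVZ) of control mice, of mice after 14 days of PLX3397 and of mice after a further 5 days of recovery (n = 5 each). PLX3397 inhibits the receptor CSF1R, on which microglia depend. All 10 genes were listed and tested in both tables of sorted cells. The SVZ table listed 6 of them, of which 3 passed the filter on low values, and Il1b, Il1rn, Nlrp3 and Casp4 were not analysed there.

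IL-1 signalling has a ligand arm and a processing arm. IL-1α and IL-1β both bind the receptor encoded by Il1r1, the antagonist encoded by Il1rn occupies that receptor without signalling, and Il1r2 encodes a decoy receptor. IL-1β and IL-18 are made as inactive precursors that caspase-1 cuts once an inflammasome, for example one built on the sensor NLRP3, has formed. Caspase-4 (caspase-11) senses LPS inside the cell, and both caspases can cut gasdermin D, the product of Gsdmd, which opens pores in the plasma membrane. LPS is the classical signal that primes transcription of Il1b and Nlrp3 in macrophages and microglia. Transcript levels say nothing of cutting or release.

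Gene coordinates are those of GRCm38 (mm10). Values are FPKM (fragments per kilobase of exon, scaled to library size), a scale per length on which genes can be compared. Libraries held the equivalent of 5.24 to 10.4 M reads in the LPS table, 4.41 to 6.79 M in the GLOBAL table and 7.89 to 11.99 M in the SVZ table. The GLOBAL depths are uncertain by a factor of 2, since the steps in that table gave whole gene lengths for 87.65% of genes, against at least 99.92% in the others. A gene rose or fell where limma gave a Benjamini-Hochberg adjusted p under 0.05 over all genes tested, and differences are log2(FPKM + 1), which understates changes of genes near or below 1 FPKM. The labels do not tie libraries to named animals, so p-values measure the spread between these libraries. The 24 sorted libraries carried microglial markers at a summed 7077 to 24910 FPKM, and also markers of neutrophils (492 to 15470 FPKM) and of monocytes (75.9 to 2860 FPKM). In such bulk samples, fewer cells of a type and less RNA per cell cannot be told apart. Of 10 genes listed as a check of LPS, 9 rose in control and 8 in WM repopulated cells at 6 hr. Control 6 hr replicate 2 stood apart there, with a sum over the check genes of 39130 FPKM against at most 21100 FPKM in its group. Some, not all, of the differences that it moved are also given without it.

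Promoter sequences are shown for 4 of the members that rose after LPS: Casp4 and Il1rn, highest at 6 hr in both origins, Nlrp3, highest at 24 hr in WM repopulated cells, and Il1b, which stayed high at both times. RefSeq (GRCm38.p6) gave entries for 9 of the 10 genes, with 14 start sites in all, and the 250 bases before each start site were searched on both strands for letters bound by known factors. Capitals mark GGGNNNTTC (a loose core of NF-κB sites, of which the stricter GGGACTTTC is a special case) in Casp4 and Il1rn and GAGGAA (a core of PU.1 sites) in Nlrp3. The Casp4 window was chr9:5308599-5308848 (+ strand), the Il1b window chr2:129371140-129371389 (- strand) and the Nlrp3 window chr11:59542436-59542685 (+ strand), each ending on the base before a start site, which for Nlrp3 was the downstream of its 2 start sites. For Il1rn only the stretch from -61 to -32 of the most downstream of its 3 start sites is shown, chr2:24345310-24345339 (+ strand), all 30 bases of which lie in an annotated Il1rn exon (GENCODE vM21).
Casp4: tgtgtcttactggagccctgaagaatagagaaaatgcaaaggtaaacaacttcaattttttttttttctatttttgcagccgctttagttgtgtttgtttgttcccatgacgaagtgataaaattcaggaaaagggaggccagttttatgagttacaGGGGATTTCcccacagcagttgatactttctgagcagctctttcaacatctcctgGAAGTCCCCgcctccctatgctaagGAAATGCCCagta
Il1rn: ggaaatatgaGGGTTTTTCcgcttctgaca
Nlrp3: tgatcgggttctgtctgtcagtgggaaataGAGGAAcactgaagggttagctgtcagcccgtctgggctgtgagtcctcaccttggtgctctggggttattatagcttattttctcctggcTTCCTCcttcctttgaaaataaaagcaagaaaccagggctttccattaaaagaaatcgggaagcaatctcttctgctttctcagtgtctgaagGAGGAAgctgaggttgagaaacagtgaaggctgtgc
Il1b: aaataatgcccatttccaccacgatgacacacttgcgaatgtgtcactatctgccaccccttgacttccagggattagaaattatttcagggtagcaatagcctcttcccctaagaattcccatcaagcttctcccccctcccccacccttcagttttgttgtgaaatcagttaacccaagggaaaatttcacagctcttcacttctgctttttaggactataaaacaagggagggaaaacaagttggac

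The Casp4 window held GGGNNNTTC at -93, -38 and -13 (positions of the match's left end, counted back from the start site), the last 2 on the opposite strand, and 21 of its bases lay in an annotated exon. In all, GGGNNNTTC was present at 4 of the 14 start sites, 2 of which were overlapping Casp4 windows, and in 11.8% of the 32851 promoters of the table. GGGACTTTC was present at 0 of the 14 and in 0.289% of all promoters. GAGGAA was present at 3 of the 14, against 23.3% of all promoters. TGANTCA (AP-1) was present at 2 of the 14, against 6.75%, and TTGCNNAA (C/EBP) at 1 of the 14, against 9.56%. The Il1b window held none of the 5 patterns, which says only that these letters are not in it.

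After LPS, Il1b, Il1rn, Il1r2 and Casp4 rose at 6 and at 24 hr in both origins, and Gsdmd was not called in any LPS comparison. In control cells 6 of the 10 genes rose at 6 hr (Il1b, Il1rn, Il1r2, Il1r1, Nlrp3 and Casp4; Il1r1 had passed the filter on low values only through its libraries after LPS) and 0 fell, where 21.4% of the 12684 genes tested rose and 21.1% fell. In WM repopulated cells 7 rose at 6 hr (Il1b, Il1rn, Il1r2, Il18, Nlrp3, Casp1 and Casp4) and 0 fell, where 19.3% of all genes rose and 19.5% fell. The median difference over the 10 genes was 0.69 in control and 0.82 in WM repopulated cells, beside 0.01 and -0.0047 over all genes. At 24 hr against 0 hr, 4 rose in control cells (Il1b, Il1rn, Il1r2 and Casp4), and 0 fell, where 12.1% of all genes rose and 9.23% fell. In WM repopulated cells 6 rose at 24 hr (the same 4 with Il1a and Nlrp3), and 0 fell, where 10.5% of all genes rose and 8.29% fell. Both times were compared with the same 0 hr libraries. Beside these changes, 6 of 7 monocyte markers rose and 9 of 10 microglial markers fell at 6 hr in both origins. At 24 hr 2 of 7 monocyte markers were up in both, and 9 of 10 microglial markers were down in control and 10 of 10 in WM repopulated cells. The summed level of 13 immediate early and dissociation genes was lower after LPS in both origins. In control cells it was 11120 to 11760 FPKM at 0 hr, 4271 to 7626 FPKM at 6 hr and 3519 to 6388 FPKM at 24 hr. In WM repopulated cells it was 15550 to 17290, 6099 to 8800 and 10950 to 14340 FPKM. The part of these lists in the results was not tested.

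**Figure D1:**
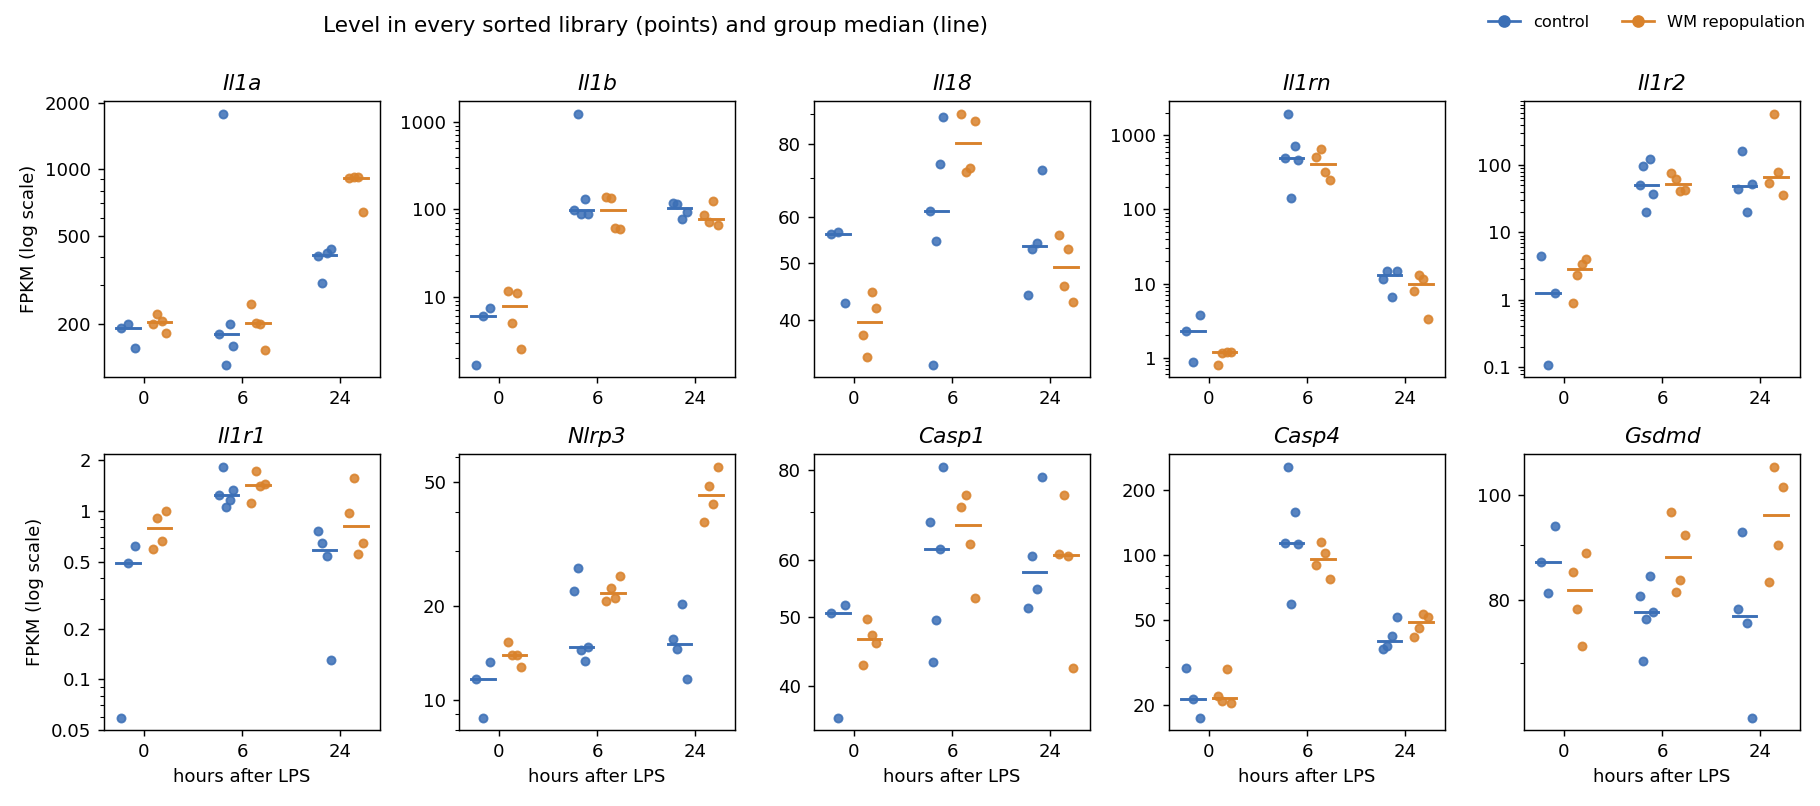
FPKM (log scale) of the 10 genes in each sorted library at 0, 6 and 24 hr after LPS, with control cells in blue, WM repopulated cells in orange and a line at each group median. Il1rn and Casp4 are highest at 6 hr, Il1b and Il1r2 stay high at 24 hr, and the 4 WM repopulated libraries lie above all control libraries at 24 hr for Il1a and Nlrp3.

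The level before LPS differed widely between the members. In control cells at 0 hr the median was highest for Il1a at 191 FPKM, followed by Gsdmd at 86.8, Il18 at 56.2, Casp1 at 50.5 and Casp4 at 21.4 FPKM. Nlrp3 had a median of 11.7 FPKM, Il1b of 6.01 FPKM, Il1rn of 2.27 FPKM, Il1r2 of 1.28 FPKM and Il1r1 of 0.490 FPKM. Neighbours in that order whose libraries overlapped were Il18 with Casp1, Il1b with Il1rn, Il1rn with Il1r2, and Il1r2 with Il1r1. The agonist Il1a was thus abundant without LPS, while the antagonist and both receptors were at 4.43 FPKM or below in all 3 libraries.

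Il1a, the gene of IL-1α (chr2:129299609-129310186), rose at 24 hr in WM repopulated cells, while in control cells the call at 24 hr depended on 1 library. The control libraries were at 191, 200 and 155 FPKM at 0 hr, at 179, 1783, 131, 200 and 159 FPKM at 6 hr, and at 404, 305, 418 and 436 FPKM at 24 hr. The WM repopulated libraries were at 200, 222, 207 and 183 FPKM at 0 hr, at 247, 203, 200 and 152 FPKM at 6 hr, and at 908, 924, 919 and 641 FPKM at 24 hr. At 6 hr control replicate 2 lay far above all others and the other 8 libraries, at 131 to 247 FPKM, spanned the 0 hr range of 155 to 222 FPKM. At 24 hr every library of both origins lay above every 0 hr library. Il1a in WM repopulated cells rose by 2.05 (SE 0.47, limma adjusted p = 0.00344) at 24 hr against 0 hr and by 2.08 (SE 0.47, adjusted p = 0.00381) against 6 hr. In control cells the difference of 24 hr from 0 hr was 1.09 (SE 0.51, limma adjusted p = 0.135). Without control 6 hr replicate 2, which enters the pooled spread of the fit, this difference was 1.09 with an adjusted p of 6.59e-05, and that of 6 hr from 0 hr moved from 0.56 to -0.13.

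The difference of Il1a between origins at 24 hr depended on the same library. The 4 WM repopulated libraries (641 to 924 FPKM) did not overlap the 4 control libraries (305 to 436 FPKM). The difference was 1.11 (SE 0.47, limma adjusted p = 0.208), which did not pass over all 24 libraries. Without control 6 hr replicate 2 the same difference of 1.11 had an adjusted p of 0.000199, and with only the 24 hr groups in the fit one of 0.0117. The change from 0 to 24 hr differed between origins by 0.95 (SE 0.70, adjusted p = 0.742), and did not pass in any of 23 alternatives. At 24 hr 6 of 13 immediate early and dissociation genes were also higher in WM repopulated cells (median 1.27), and their part in the Il1a difference was not tested. Il1a overlaps the noncoding gene Gm14023, and since the counting is not stated to use strand, reads from an overlapping pair cannot be told apart.

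Il1b, the gene of IL-1β (chr2:129364569-129371164), rose at 6 hr and was still high at 24 hr in both origins. Control libraries held it at 1.68, 6.01 and 7.39 FPKM at 0 hr, at 98.1, 1238, 87.5, 131 and 89.3 FPKM at 6 hr, and at 117, 115, 78.2 and 93.7 FPKM at 24 hr. WM repopulated libraries held it at 11.6, 5.01, 10.9 and 2.51 FPKM at 0 hr, at 139, 136, 60.5 and 59.6 FPKM at 6 hr, and at 85.3, 70.8, 124 and 66.0 FPKM at 24 hr. All libraries after LPS lay above all 0 hr libraries, and those of 6 and 24 hr overlapped. In control cells Il1b rose by 4.95 at 6 hr (SE 0.62, limma adjusted p = 7.74e-07; 4.23 without control replicate 2). At 24 hr it was up by 4.22 over 0 hr (SE 0.65, adjusted p = 5.2e-05). For WM repopulated cells the rise was 3.61 at 6 hr (SE 0.60, adjusted p = 3.97e-05) and 3.50 at 24 hr (SE 0.60, adjusted p = 0.000194). Il1b overlaps the antisense gene Il1bos, so part of these reads may belong to that gene.

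Il18 (chr9:50554700-50581841), whose product caspase-1 also cuts, was expressed before LPS, and it rose at 6 hr in WM repopulated cells. Its libraries spanned 42.6 to 56.5 FPKM in control and 34.6 to 44.7 FPKM in WM repopulated cells at 0 hr. At 6 hr they spanned 33.5 to 89.1 FPKM in control and 71.6 to 90.3 FPKM in WM repopulated cells. In the latter all 6 hr libraries lay above all 0 hr libraries, and Il18 rose by 1.01 (SE 0.21, limma adjusted p = 0.000422). In control cells the groups overlapped and the difference was 0.21 (SE 0.21, adjusted p = 0.46). Control replicate 2 was lowest of the 5 at 6 hr, and without it the difference was 0.41 (SE 0.17, adjusted p = 0.0614). The difference between the changes of the origins was 0.80 (SE 0.30, adjusted p = 0.602), or 0.60 without that library (SE 0.23, adjusted p = 0.642), so the origins were not shown to differ. From 6 to 24 hr Il18 fell by 0.70 in WM repopulated cells (SE 0.21, adjusted p = 0.0223), a call that was lost without WM 6 hr replicate 1 (adjusted p = 0.0616) or 4 (0.0566) and without WM 24 hr replicate 2 (0.0517) or 4 (0.0672). Il18 overlaps Bco2 and Tex12.

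Il1rn, the gene of the receptor antagonist (chr2:24336860-24351491), had the largest rise of the 10 genes, and most of it was gone by 24 hr. Its control values were 2.27, 0.863 and 3.82 FPKM at 0 hr, 495, 1954, 142, 705 and 463 FPKM at 6 hr, and 11.5, 14.9, 6.60 and 14.5 FPKM at 24 hr. Its WM repopulated values were 0.806, 1.18, 1.19 and 1.19 FPKM at 0 hr, 507, 649, 318 and 250 FPKM at 6 hr, and 7.98, 13.01, 11.6 and 3.31 FPKM at 24 hr. The 6 hr libraries lay above all others in both origins, and the 24 hr libraries lay above those of 0 hr within each origin. The rise at 6 hr was 7.45 in control (SE 0.53, limma adjusted p = 2.1e-10; 6.98 without control replicate 2) and 7.60 in WM repopulated cells (SE 0.51, adjusted p = 1.19e-10). From 6 to 24 hr Il1rn fell by 5.44 in control (SE 0.48, adjusted p = 5.11e-08) and by 5.47 in WM repopulated cells (SE 0.51, adjusted p = 2.41e-07). At 24 hr it was still up over 0 hr by 2.005 in control (SE 0.55, adjusted p = 0.011) and by 2.13 in WM repopulated cells (SE 0.51, adjusted p = 0.0046). The control call at 24 hr was lost without control 0 hr replicate 2 (1.64, adjusted p = 0.0745), and both calls were lost with voom on recovered reads (adjusted p = 0.0945 and 0.0799).

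Il1r2, the decoy receptor gene (chr1:40084692-40125230), rose at 6 hr and stayed high at 24 hr, with wide spread between libraries. In control cells it was at 4.43, 0.108 and 1.28 FPKM at 0 hr, at 51.1, 96.2, 20.02, 122 and 37.4 FPKM at 6 hr, and at 44.4, 165, 20.4 and 52.8 FPKM at 24 hr. WM repopulated cells had it at 0.909, 2.36, 3.44 and 4.01 FPKM at 0 hr, at 76.3, 62.4, 42.0 and 42.5 FPKM at 6 hr, and at 54.7, 586, 78.8 and 35.6 FPKM at 24 hr. All libraries after LPS lay above all 0 hr libraries, and WM 24 hr replicate 2 lay far above the rest. Il1r2 rose by 4.52 at 6 hr in control (SE 0.72, limma adjusted p = 1.91e-05) and by 3.99 in WM repopulated cells (SE 0.69, adjusted p = 6.98e-05). At 24 hr it was up by 4.505 in control (SE 0.75, adjusted p = 0.000127; 0.0755 with voom on recovered reads) and by 4.84 in WM repopulated cells (SE 0.69, adjusted p = 2.53e-05; 3.98 without WM 24 hr replicate 2, adjusted p = 7.65e-05). Neutrophils also express Il1r2, and the summed neutrophil markers were highest of their group in WM 24 hr replicate 2 (7323 FPKM) and in control 24 hr replicate 2 (15470 FPKM), the highest Il1r2 library of each group. The same library was highest in both measures in 4 of the 6 groups, and not in control 6 hr (replicate 2 for the markers, 4 for Il1r2) or WM 0 hr (3 and 4). From 0 to 6 hr, 8 of 11 neutrophil markers fell in WM repopulated cells and 3 of 11 in control cells, and 0 rose. From 6 to 24 hr, 3 of 11 rose in WM repopulated cells (median 1.79) and 6 of 11 in control cells (median 2.10), and 0 fell. The part of these cells in the Il1r2 values was not tested. Il1r2 overlaps the noncoding gene Gm16894.

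Il1r1, the signalling receptor (chr1:40222480-40316201), was at 1.84 FPKM or below in all 24 libraries. It passed the filter on low values only through libraries collected after LPS, 9 of them at 6 hr. Its calls for changes to and from 6 hr thus partly follow from that choice and are given with no filter too. It spanned 0.0591 to 0.619 FPKM at 0 hr, 1.06 to 1.84 FPKM at 6 hr and 0.130 to 0.758 FPKM at 24 hr in control cells. The WM repopulated ranges were 0.592 to 0.994, 1.12 to 1.72 and 0.557 to 1.57 FPKM. In both origins the 6 hr libraries lay above those of 0 hr. Il1r1 rose by 0.76 at 6 hr in control cells (SE 0.20, limma adjusted p = 0.0031; 0.00186 with no filter). It then fell by 0.63 to 24 hr (SE 0.18, adjusted p = 0.0109; 0.00736 with no filter and 0.0535 without control 24 hr replicate 4). The 6 hr difference of WM repopulated cells was 0.43 (SE 0.19, adjusted p = 0.0728).

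The level of the antagonist relative to its agonists was followed in each library as log2(Il1rn + 1) minus log2(Il1a + Il1b + 1), in FPKM. In control cells it was -5.92 ± 0.86 (SD, n = 3) at 0 hr, 0.31 ± 0.86 (n = 5) at 6 hr and -5.31 ± 0.55 (n = 4) at 24 hr. The WM repopulated mean was -6.66 ± 0.19 (n = 4) at 0 hr, 0.47 ± 0.32 at 6 hr and -6.67 ± 0.53 at 24 hr. The mean was above 0, where Il1rn equals the sum of its agonists, at 6 hr in both origins and below it at the other times. Control libraries were mixed at 6 hr, at 0.83, -0.63, -0.62, 1.09 and 0.89, with replicates 2 and 3 below 0. At 24 hr the 4 WM repopulated libraries (-6.79, -6.15, -6.37 and -7.36) lay below the 4 control libraries (-5.38, -4.73, -6.03 and -5.09). The difference was -1.36, with p = 0.0286 in a 2-sided exact permutation test, the smallest this design allows, and 0.0858 when adjusted over the 3 times. At 0 hr the difference was -0.74 (exact permutation p = 0.229, adjusted 0.344) and at 6 hr 0.15 (p = 0.651, adjusted 0.651). With 1 library left out these ranged from -1.17 (without control 0 hr replicate 2) to -0.32 (without control 0 hr replicate 3), and from -0.08 (without control 6 hr replicate 2 or 3) to 0.34 (without control 6 hr replicate 4). With Il1b alone as the agonist the 24 hr difference was -0.20 (exact permutation p = 0.6).

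**Figure D2:**
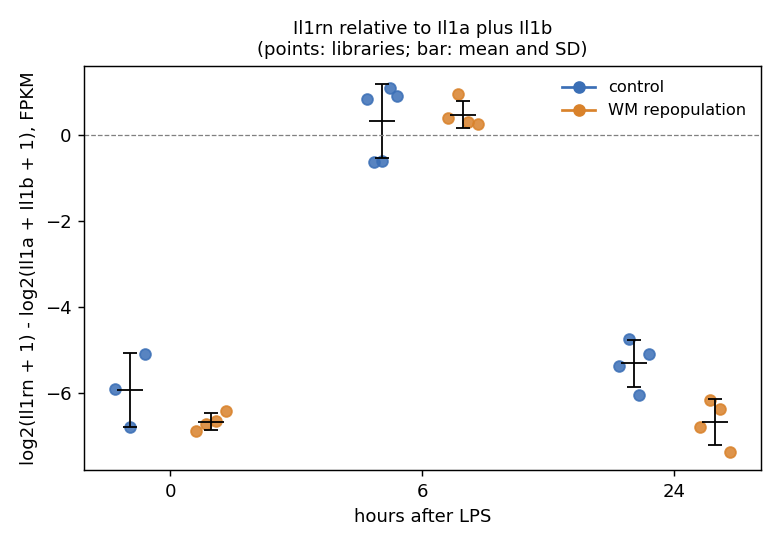
The log2 level of Il1rn relative to Il1a plus Il1b (FPKM + 1) in each sorted library against hours after LPS, control in blue and WM repopulated in orange, with group mean and SD as black bars. Values lie near 0 at 6 hr and between -7.36 and -4.73 at 24 hr, where the WM repopulated libraries are all below the control libraries.

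Nlrp3, the inflammasome sensor (chr11:59541569-59566955), separated the origins at 24 hr. In control cells it was at 11.7, 8.78 and 13.2 FPKM at 0 hr, at 22.3, 26.6, 14.5, 13.3 and 14.8 FPKM at 6 hr, and at 15.7, 14.6, 20.3 and 11.6 FPKM at 24 hr. WM repopulated cells had it at 15.4, 13.9, 13.9 and 12.8 FPKM at 0 hr, at 20.8, 22.9, 21.2 and 24.9 FPKM at 6 hr, and at 37.2, 48.4, 42.4 and 56.0 FPKM at 24 hr. The WM repopulated libraries rose at each time without overlap, and their lowest value at 24 hr lay above every other library of the table. In these cells Nlrp3 rose by 0.64 at 6 hr (SE 0.19, limma adjusted p = 0.0103) and by 1.64 at 24 hr (SE 0.19, adjusted p = 2.21e-06), 0.99 above 6 hr (SE 0.19, adjusted p = 0.000952). In control cells it rose by 0.62 at 6 hr (SE 0.20, adjusted p = 0.0138), a call lost without control 0 hr replicate 2 (0.47, adjusted p = 0.105) and with only the groups compared in the fit (0.0724). The control difference at 24 hr was 0.43 (SE 0.21, adjusted p = 0.15).

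WM repopulated cells thus held more Nlrp3 transcript than control cells at 24 hr, by 1.51 (SE 0.19, 95% interval 1.12 to 1.91, limma adjusted p = 5.11e-05). The call held in 17 of 17 alternatives, with values of 1.39 to 1.64. The change from 0 to 24 hr differed between origins by 1.21 (SE 0.28, adjusted p = 0.0904) and that from 6 to 24 hr by 1.19 (SE 0.27, adjusted p = 0.0719), neither of which passed. Without control 6 hr replicate 2 the former had an adjusted p of 0.0441. The latter had one of 0.0416 without control 6 hr replicate 4 and of 0.0352 without control 24 hr replicate 3. Markers of other cells were also lower in WM repopulated libraries at 24 hr. Border-associated macrophage markers summed to 26.1 to 53.7 against 65.5 to 86.5 FPKM in control. Neutrophil markers summed to 3292 to 7323 against 6502 to 15470 FPKM, which overlapped, as did the microglial sums. The part of these cells in the differences of Nlrp3, Il1a and the antagonist ratio at 24 hr was not tested. Of a list of 13 immediate early and dissociation genes, 6 were also higher in WM repopulated than in control cells at 24 hr. Their summed level was 10950 to 14340 FPKM in those cells and 3519 to 6388 FPKM in control cells, and the part of this in the Nlrp3 difference was not tested. The median difference of the 13 was 1.27 at 24 hr. At 0 hr it was 0.45, with 0 of the 13 called and sums of 15550 to 17290 against 11120 to 11760 FPKM, and Nlrp3 differed by 0.31 (SE 0.21, adjusted p = 0.603). At 6 hr the sums were 6099 to 8800 FPKM in WM repopulated and 4271 to 7626 FPKM in control cells. Over time the list did not follow Nlrp3 in WM repopulated cells, as its sum was lowest at 6 hr while Nlrp3 rose at each time.

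Casp1 (chr9:5298517-5307281), the processing enzyme, and Gsdmd (chr15:75862144-75867408), the pore gene, were expressed before LPS. Casp1 spanned 36.2 to 51.9 FPKM in control and 42.8 to 49.6 FPKM in WM repopulated cells at 0 hr, and 43.3 to 80.9 and 53.1 to 73.7 FPKM at 6 hr. The WM repopulated groups did not overlap, and Casp1 rose by 0.48 (SE 0.19, limma adjusted p = 0.0464). This call was lost on leaving out WM 0 hr replicate 1 (adjusted p = 0.1), 2 (0.0594), 3 (0.0723) or 4 (0.08) and WM 6 hr replicate 1 (0.107), 2 (0.124) or 3 (0.0714), and held without WM 6 hr replicate 4. It was also lost with no filter on low values (0.0532) and with quantile normalization (0.0825). In control cells the groups overlapped and the difference was 0.37 (SE 0.19, adjusted p = 0.128; 0.0429 without control 6 hr replicate 2). Gsdmd spanned 62.2 to 106 FPKM over all 24 libraries and did not pass in any LPS comparison. Its lowest adjusted p there was 0.161, for a difference between origins at 24 hr of 0.30 (SE 0.12).

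Casp4, the sensor of LPS inside the cell (chr9:5308849-5336791), rose at 6 hr and partly came down by 24 hr. In control cells it was at 29.7, 21.4 and 17.5 FPKM at 0 hr, at 114, 257, 58.9, 157 and 112 FPKM at 6 hr, and at 36.6, 37.8, 41.8 and 51.6 FPKM at 24 hr. WM repopulated cells had it at 22.1, 21.01, 29.6 and 20.4 FPKM at 0 hr, at 89.9, 115, 102 and 77.4 FPKM at 6 hr, and at 41.6, 45.8, 52.9 and 51.6 FPKM at 24 hr. The 3 times did not overlap in either origin. Casp4 rose by 2.43 at 6 hr in control (SE 0.28, limma adjusted p = 2.41e-07; 2.17 without control replicate 2) and by 1.997 in WM repopulated cells (SE 0.27, adjusted p = 3.17e-06). It fell from 6 to 24 hr by 1.56 in control (SE 0.26, adjusted p = 7.98e-05) and by 0.98 in WM repopulated cells (SE 0.27, adjusted p = 0.0155; 0.0562 without WM 6 hr replicate 2). At 24 hr it was up over 0 hr by 1.02 in WM repopulated cells (SE 0.27, adjusted p = 0.00987) and by 0.87 in control (SE 0.29, adjusted p = 0.0369). The control call was lost without control 0 hr replicate 2 (adjusted p = 0.0987) or 3 (0.165), without control 24 hr replicate 3 (0.0612) or 4 (0.0931), and with voom on recovered reads (0.0687).

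From 6 to 24 hr, 3 of the 10 genes fell in control cells (Il1rn, Il1r1 and Casp4) and 0 rose, where 13.3% of all genes fell and 15% rose. Il1r1 was tested only through libraries after LPS, most of them at 6 hr, so its fall partly follows from the filter and is not read against these shares. Its limma adjusted p was 0.00736 with no filter and 0.0535 without control 24 hr replicate 4. Without control 6 hr replicate 2, Il1a also rose in control cells, by 1.22 (SE 0.16, limma adjusted p = 7.66e-06), against 0.54 (SE 0.45, adjusted p = 0.398) with it. In WM repopulated cells 3 fell (Il1rn, Il18 and Casp4), where 7.5% of all genes fell, and 2 rose (Il1a and Nlrp3), where 8.19% of all genes rose. The antagonist and Casp4 came down in both origins. The ligand Il1b and the decoy Il1r2 had intervals for this change that included 0 in both.

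Set directly against control cells at the same time, WM repopulated cells differed in 1 member. At 0 hr 0 of the 10 genes passed (limma, 0 at an unadjusted p under 0.05), where 1.21% of all genes passed and 11.9% at an unadjusted p under 0.05. At 6 hr again 0 passed (1, Il18, at an unadjusted p under 0.05), where 0.323% of all genes passed and 9.18% unadjusted. At 24 hr 1 rose (Nlrp3) and 0 fell, where 1.68% of all genes were higher and 2.29% lower. At that time 2 of the 10 (Nlrp3 and Il1a) had groups that did not overlap, as had 12.1% of all genes. For Il1rn at 6 hr the difference was -0.42 with a 95% interval of -1.42 to 0.58 (0.05 without control replicate 2), and for Il1b -0.86 with -2.03 to 0.31 (-0.14 without control replicate 2). For Il1a at 6 hr the difference was -0.43 with -1.36 to 0.50, and it turned to 0.25 without control replicate 2. For Il1r2 at 24 hr it was 0.86 with -0.57 to 2.30, and it moved to 0.01 without WM 24 hr replicate 2 and to 1.40 without control 24 hr replicate 2. The change from 0 to 6 hr, 0 to 24 hr and 6 to 24 hr differed between origins for 0 of the 10 genes (limma, 1, 2 and 2 at an unadjusted p under 0.05), where 0.0237%, 0.0867% and 0.158% of all genes passed and 7.2%, 8.71% and 9.52% unadjusted.

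**Figure D3:**
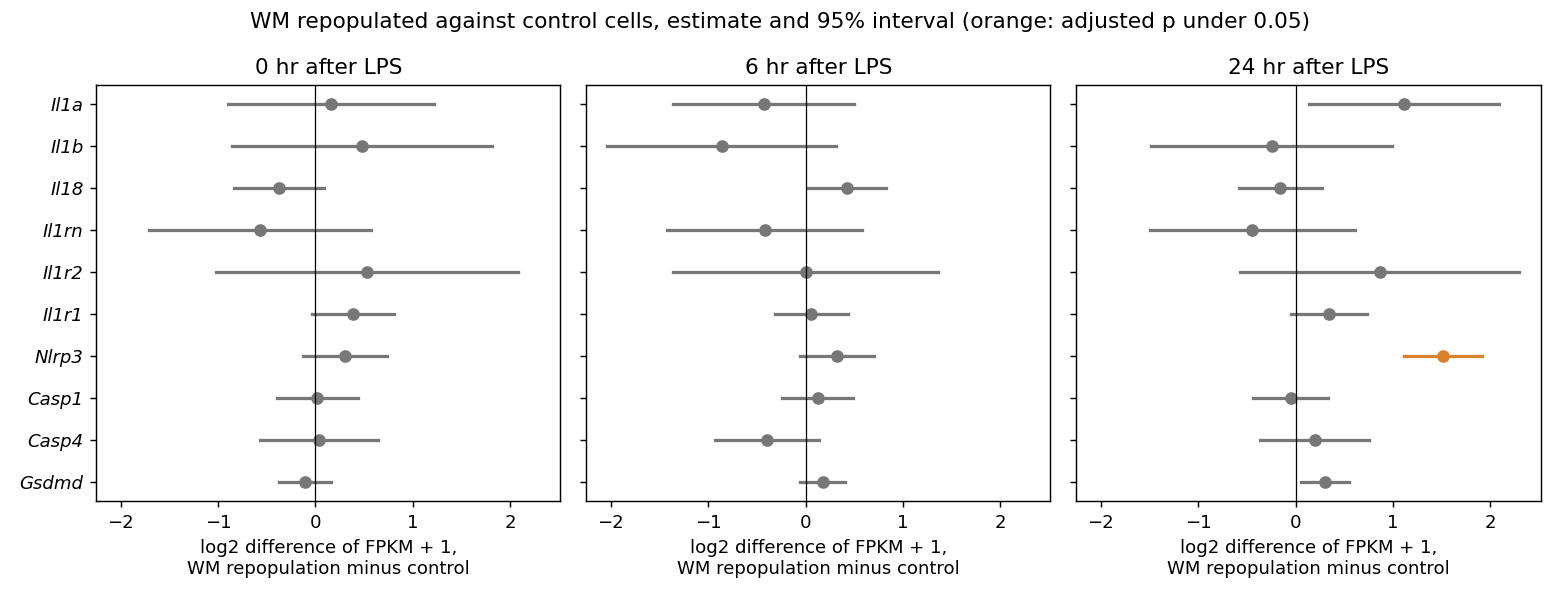
Difference between WM repopulated and control cells in log2(FPKM + 1) for each of the 10 genes at 0, 6 and 24 hr after LPS, as the limma estimate (point) with its 95% interval (line), orange where the adjusted p was under 0.05. Nlrp3 at 24 hr (1.51) is the only member in orange, and the wide intervals of Il1b, Il1rn and Il1r2 cover differences above 1 in size.

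Other genes of the pathway moved in both directions. Of 18 inflammasome sensors, adaptors and regulators tested, 6 rose and 4 fell in control cells at 6 hr, and 7 rose and 3 fell in WM repopulated cells. Their median difference was 0.19 in control and 0.40 in WM repopulated cells, and over all genes, of which 21.4% rose and 21.1% fell in control and 19.3% rose and 19.5% fell in WM repopulated cells, it was 0.01 and -0.0047. Gbp2, a guanylate-binding protein that acts with caspase-11 on bacterial LPS, went from a mean of 8.45 to 117 FPKM in control cells (3.47, SE 0.48, limma adjusted p = 2.95e-06) and from 8.48 to 106 FPKM in WM repopulated cells (3.47, SE 0.46, adjusted p = 2.27e-06). Mefv, the pyrin gene, rose by 2.72 in control (SE 0.32, adjusted p = 3.05e-07) and by 2.67 in WM repopulated cells (SE 0.31, adjusted p = 3.12e-07). Nek7, a kinase that binds NLRP3, fell by 1.38 in control (SE 0.21, adjusted p = 9.13e-06) and by 0.95 in WM repopulated cells (SE 0.20, adjusted p = 0.000573). P2rx7, the ATP receptor upstream of NLRP3, fell by 1.27 in control (SE 0.15, adjusted p = 3.42e-07) and by 0.98 in WM repopulated cells (SE 0.15, adjusted p = 1.08e-05). At 6 hr P2rx7 was higher in WM repopulated than in control cells by 0.63 (SE 0.14, adjusted p = 0.0417).

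Among 8 other ligands, receptors and binding proteins of the family, 4 rose and 0 fell in control cells at 6 hr, and 4 rose and 1 fell in WM repopulated cells, with medians of 0.96 and 0.95. Il18bp, which encodes a soluble blocker of IL-18, rose by 2.06 at 6 hr (SE 0.36, limma adjusted p = 6.38e-05) and by 2.94 at 24 hr (SE 0.36, adjusted p = 2.93e-06) in WM repopulated cells. In control cells it was up by 2.07 at 24 hr (SE 0.38, adjusted p = 0.000429). Only the 3 largest rises of each comparison were named, so its control value at 6 hr is not given. No difference between origins at 6 hr is read from that. Il1rl2, the receptor of IL-36, was higher in WM repopulated than in control cells at 24 hr by 0.71 (SE 0.17, adjusted p = 0.016), as was P2rx4, another ATP receptor, by 0.57 (SE 0.15, adjusted p = 0.0369). In control cells Il1rl2 had fallen from 0 to 24 hr by 0.90 (SE 0.18, limma adjusted p = 0.000886). Of 15 genes of IL-1 receptor signalling, 5 rose and 0 fell at 6 hr in control cells, and 5 rose and 1 fell in WM repopulated cells, with medians of 0.22 and 0.27. Of 7 other caspases, gasdermins and pyroptosis genes, 1 rose and 2 fell in control cells and 2 rose and 2 fell in WM repopulated cells, with medians of -0.47 and -0.15. Ninj1, which acts in the rupture of the membrane after gasdermin pores, fell from 6 to 24 hr by 2.15 in control (SE 0.21, adjusted p = 1.24e-07) and by 1.91 in WM repopulated cells (SE 0.22, adjusted p = 2.56e-06).

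Across the 24 LPS libraries, which share groups and times, the genes whose log2(FPKM + 1) followed a member most closely differed between members. Il1rn ran closest to Sod2 (Pearson r = 0.986), AA467197 (0.974) and Adora2b (0.969). Casp4 ran closest to Ugcg (0.969), Rsad2 (0.958) and Cd40 (0.956), and Il1b to Slc39a14 (0.928), Ifit1 (0.927) and Nupr1 (0.925). Il1r2 ran closest to AI607873 (0.924), Fcgr4 (0.917) and Cd63 (0.916), and Il1r1 to Il17ra (0.897), Gorasp2 (0.879) and Tdrd7 (0.867). Nfkbiz, an NF-κB cofactor, was among the 3 closest of both Il1a (0.898, with Ctsl at 0.889 and Herpud1 at 0.882) and Nlrp3 (0.859, with Zbtb11 at 0.872 and Brpf1 at 0.851), the members whose WM repopulated libraries at 24 hr lay above all controls. For the last 3 members the closest genes had values of 0.807 for Il18 (Cdk5r1, then Dph7 at 0.806 and Slirp at 0.789), 0.815 for Casp1 (Sdcbp, then Chmp2a at 0.811 and Igtp at 0.794) and 0.786 for Gsdmd (Lipe, then Serac1 at 0.76 and Dbnl at 0.724).

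GLOBAL repopulated cells, which had no LPS, were not distinguished from their controls for any member. By limma 0 of the 10 genes passed, as did 0% of 16651 genes tested, and at an unadjusted p under 0.05 1 of the 10 passed beside 9.03% of all genes. That gene was Casp1, at 23.7, 24.2 and 27.1 FPKM in repopulated and 14.6, 16.5, 17.6 and 17.7 FPKM in control cells. Its groups did not overlap, as for 9.96% of all genes, and the difference was 0.56 (SE 0.14, 95% interval 0.26 to 0.87, adjusted p = 0.294). Nlrp3 was at 43.1, 28.9 and 30.5 FPKM in repopulated and 42.2, 38.0, 28.3 and 39.3 FPKM in control cells, overlapping, with a difference of -0.12 (95% interval -0.52 to 0.29, limma adjusted p = 0.865). Il1a was at 180, 165 and 171 FPKM in repopulated and 126, 166, 117 and 155 FPKM in control cells, with a difference of 0.30 (95% interval -0.03 to 0.63, adjusted p = 0.577). The antagonist and the receptors were again low, with Il1rn at 0.536 to 2.96 FPKM, Il1r1 at 0.327 to 1.92 FPKM and Il1r2 at 0.283 to 9.65 FPKM over the 7 libraries. The 2 highest Il1r2 values were in control replicates 1 and 2, and neutrophil markers summed to 2333 to 23410 FPKM in control and 1472 to 4844 FPKM in repopulated libraries. The part of those cells was not tested. This table was normalised separately from the LPS table, so its levels are given side by side only.

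In SVZ tissue the members were low, apart from Il18. Gsdmd was at 1.70, 2.09, 1.22, 1.55 and 0.887 FPKM in control tissue, at 0.376, 0.690, 0.711, 0.648 and 0.818 FPKM after 14 days of PLX3397, and at 0.419, 0.547, 0.646, 0.582 and 0.785 FPKM after 5 days of recovery. All control libraries lay above all others, and the filter on low values was passed through the control group. Gsdmd fell by 0.58 (SE 0.13, limma adjusted p = 0.0274) after PLX3397 and by 0.63 (SE 0.13, adjusted p = 0.0148) at 5 days of recovery, and it was at 43.5% ± 11.1 and 39.9% ± 9.02 of the control mean (SD, n = 5). With no filter the adjusted p were 0.0147 and 0.00809. Of the 14151 genes tested 1.21% and 1.09% fell, and groups lay apart in that direction for 1.92% and 1.97%, but as Gsdmd was tested only because it was high in control tissue, nothing is read from these shares. The call after PLX3397 was lost without control replicate 1 (adjusted p = 0.0768), 2 (0.0893) or 4 (0.0791) and without PLX3397 replicate 1 (0.1), 2 (0.0641), 3 (0.0573) or 4 (0.067). Both calls were lost with only the groups compared in the fit (adjusted p = 0.0899 and 0.0644).

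Microglial markers fell in the same tissue. Of 10 markers, 9 fell in both comparisons, and after PLX3397 the 10 ranged from Cx3cr1 at 0.223% to Sall1 at 77.0% of the control mean, with Olfml3 next below Sall1 at 15.6%. Their sum went from 208 to 278 FPKM in control libraries to 16.04 to 19.5 FPKM after PLX3397 and 26.0 to 33.1 FPKM at 5 days of recovery. Pycard, the inflammasome adaptor, fell by 1.14 (SE 0.12, limma adjusted p = 5.38e-06) and by 0.99 (SE 0.12, adjusted p = 4.18e-05), from a mean of 4.02 FPKM to 1.28 and 1.53 FPKM. Of the 3 members tested, 0 passed between 5 days of recovery and PLX3397 (1, Il18, at an unadjusted p under 0.05), where 0.325% of all genes passed and 16.5% unadjusted.

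Il1a in SVZ tissue was near the limit of detection and stayed below the filter. It had 8, 14, 26, 4 and 12 reads in the control libraries (0.437, 0.775, 1.10, 0.175 and 0.639 FPKM), 0 reads in 4 libraries and 2 reads in replicate 5 after PLX3397, and 0, 6, 0, 5 and 3 reads at 5 days of recovery. At the depth of the shallowest library, itself not at 0, a count of 0 would allow up to 0.193 FPKM (3 reads, counting error only). The libraries at 0 were deeper, so their limit was lower. The highest value after PLX3397 was 0.0919 FPKM. With no filter the fall after PLX3397 passed (-0.65, limma adjusted p = 0.0112) and that at 5 days of recovery did not (-0.46, adjusted p = 0.104). Il18 was at 28.7, 30.3, 30.4, 26.3 and 26.6 FPKM in control tissue, 23.1, 24.9, 24.01, 22.5 and 25.8 FPKM after PLX3397, and 30.04, 25.2, 27.8, 36.5 and 28.97 FPKM at recovery. After PLX3397 all libraries lay below the controls, by 0.23 (SE 0.09, adjusted p = 0.559), which did not pass, and the mean was at 84.6% ± 4.69 of control. Il1r1 spanned 0.352 to 1.67 FPKM, Il1r2 0.248 to 1.799 FPKM and Casp1 0.0735 to 0.972 FPKM over the 15 SVZ libraries, with all groups overlapping. The highest Il1r1 value was in control replicate 1, where markers of ependymal cells and choroid plexus summed to 21630 FPKM against at most 149 FPKM in the other control libraries. Their part in that value was not tested.

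**Figure D4:**
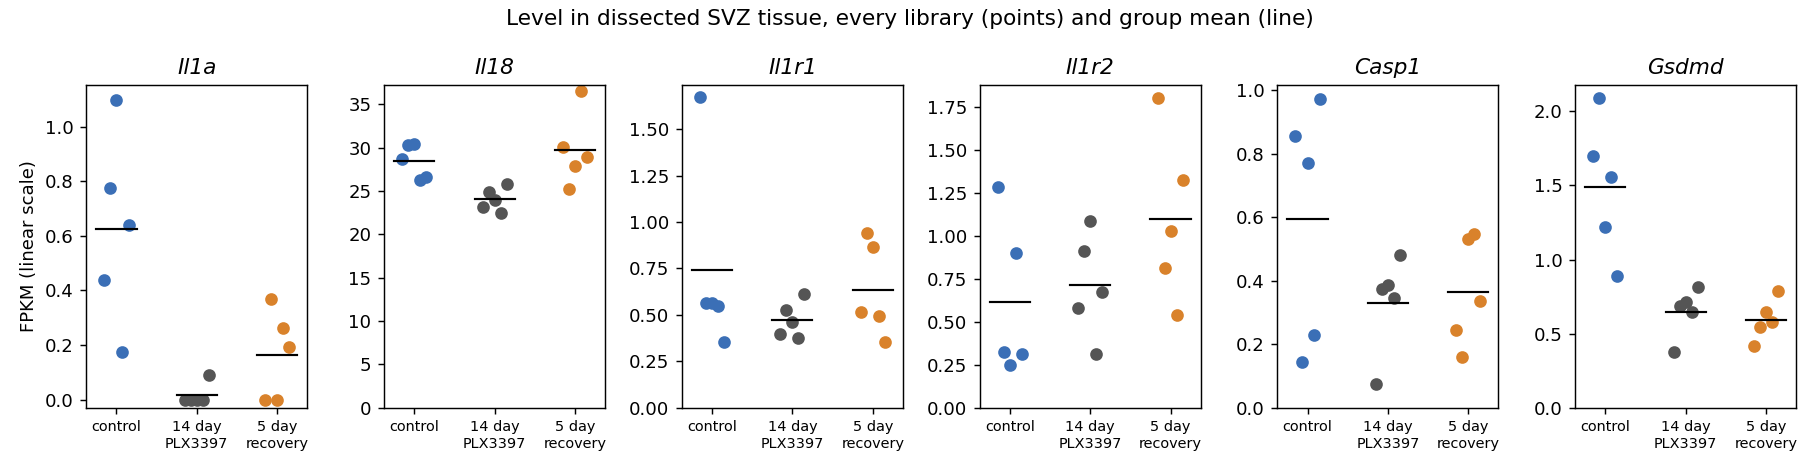
FPKM (linear scale from 0) of the 6 members listed for SVZ tissue in each library of the 3 tissue groups, from left to right control, PLX3397 for 14 days and the later recovery (n = 5 each), with a line at each group mean. The control libraries lie above all others for Gsdmd, 4 of 5 libraries after PLX3397 are at 0 for Il1a, and Il18 stays between 22.5 and 36.5 FPKM.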

How the data were processed

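Per the labels and the study's methods, RNA of sorted CD11b+CD45int cells and of SVZ tissue was sequenced as paired ends, reads were aligned to mm10 with STAR 2.5.1b and counted per gene with featureCounts, and the authors deposited FPKM values per gene in 3 tables, each normalised separately. FPKM values step by whole reads in 99.9% to 99.95% of genes, which gave the depth and the read counts. Genes with at least 1 FPKM in at least 3 libraries (12684, 16651 and 14151) were fitted as log2(FPKM + 1) in limma 3.58.1 (R 4.3.3; trended eBayes, all groups of a table in 1 fit, Benjamini-Hochberg over all genes tested). The antagonist ratio was tested by exact permutation (scipy 1.17.1, Python 3.11.15). No count model was used on FPKM as the main test, and voom on recovered reads was an alternative.

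The 10 members, the pathway lists and the marker lists were chosen with earlier results of these data known. Named genes were the members, at most 3 called genes per direction and comparison from the pathway lists, and the 3 genes closest to each member by Pearson correlation among genes with a mean of at least 1 FPKM. Promoters came from RefSeq (GRCm38.p6). For the sorted cells, the labels' extraction text describes other dissections than the sort in the study's methods. SVZ symbols that had turned into dates (25) were restored from gene IDs.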

Additional observations from a re-analysis of the deposited data

Results flagged for a closer look

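Of 83 sets of values tested (a gene, or the antagonist ratio, in a group of 4 or 5 libraries), 7 held a library that stood apart from the rest of its group. For normally spread values chance alone gives about 1 in 20. The sets share libraries, so they are not independent. Control 6 hr replicate 2 stood apart for Il1a, at 1783 FPKM, and for Il1b, at 1238 FPKM. WM repopulated 24 hr replicate 2 stood apart for Il1r2, at 586 FPKM. WM repopulated 24 hr replicate 4 lay below its group for Il1a, at 641 FPKM, and WM repopulated 0 hr replicate 1 lay below its group for Il1rn, at 0.806 FPKM. In SVZ tissue, control replicate 1 stood apart for Il1r1, at 1.67 FPKM, and replicate 5 after 14 days of PLX3397 stood apart for Il1a, at 0.0919 FPKM (2 reads).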

How the results depend on the processing

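Of 2483 values of single members under another setting, 2312 kept their direction and side of the threshold, 108 changed sign with no call in either fit, 50 lost and 13 gained a call, and 0 changed direction while called. The count of members called at 24 hr against 0 hr in control cells, 4, was 1 with voom on recovered reads, and 2 to 5 when 1 library was left out. From 6 to 24 hr in WM repopulated cells it was 2 in place of 5 when a log2 difference above 1 in size was also asked. Between origins at 24 hr it was 2 in place of 1 with only the groups compared in the fit, and also, in settings chosen after seeing the data, without control 6 hr replicate 2 and with that library and WM 24 hr replicate 2 both left out. The difference between origins in the change from 0 to 24 hr, and from 6 to 24 hr, was called for 0 to 1 members when 1 library was left out. For SVZ tissue after 14 days of PLX3397 the count of 1 became 2 with no filter, and 0 with voom, with a log2 difference above 1, with only the groups compared and with most single libraries left out (0 to 1). At 5 days of recovery it became 0 with a log2 difference above 1 and with only the groups compared. The antagonist ratio at 24 hr was -0.20 with Il1b alone and -1.599 to -1.13 with 1 library left out, where p cannot go below 0.0571. The causes were not tested. Same replicate numbers were not taken to pair the libraries, since in no table did every same-number pair correlate above 0.1 in its deviations (-0.19 to 0.266 in the LPS, 0.056 to 0.137 in the GLOBAL and -0.155 to 0.486 in the SVZ table), and 9 of 23, 4 of 6 and 4 of 15 libraries correlated best with their own number. With the number as a block, GLOBAL calls over all genes went from 0 to 55, with 0 members. Under the block, the calls of Casp4 at 24 hr in control cells (adjusted p = 0.061), Casp1 at 6 hr in WM repopulated cells (0.0508) and Gsdmd after PLX3397 (0.0879, leaving 0 members called) were lost. Depth limits Il1r1 and the SVZ members, where 1 read is worth up to 0.0379 FPKM for Il1r1 in sorted cells and 0.0642 FPKM for Il1a in SVZ tissue.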
